A study of Mus musculus with 16 samples.

Results

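Monocytes that had entered 2208L mammary tumors were taken from single-cell RNA profiles as cells with transcripts of Ccr2, alone or with Ly6c2, and they numbered 708 of the 13830 tumor cells kept. A cell was kept with more than 200 and fewer than 6000 detected genes and at most 10% mitochondrial unique molecular identifiers (UMIs, each 1 captured RNA molecule). It was called a monocyte when Ccr2 and Ly6c2 together had at least 3 UMIs and Ccr2 at least 1, with fewer than 20 UMIs over C1qa, C1qb and C1qc, at most 4 over Krt8, Krt18 and Epcam, and at most 1 over Cd3e, Cd3g and Trbc2. Levels of those genes chose the cells and are given below as a description only. Monocytes were compared among 4 tumor conditions, each with 1 library.

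Mice were wild-type female BALB/c mice carrying transplanted Trp53-null 2208L mammary tumors, and all were treated for 7 days. The conditions were vehicle, IACS-70654, anti–PD-1 and a combination, taken here as IACS-70654 with anti–PD-1. The sample title says only combination, and the combination treatment described in the paper also included docetaxel. IACS-70654 is an inhibitor of the bromodomain of CBP and P300, acetyltransferases that mark active enhancers, and it was given on a 3-on/2-off schedule. Anti–PD-1 is an antibody against an inhibitory receptor of T cells. Each library pooled cells of 3 mice sorted as live cells, with no gate on CD45, so tumor cells, stroma and leukocytes share a denominator. The labels give no age. With 1 library per condition there was no replicate, so no difference between tumor conditions was tested, and every interval on a tumor value is a 95% interval that covers counting error only. Bone marrow of the same study gave monocytes in 2 libraries per group, and those values are set beside the tumor values at the end. The marrow groups were vehicle and IACS-70654, from mice with 2208L tumors treated for 6 or 7 days (the sources differ), and ctrl, from untreated wild-type BALB/c mice without tumors by the study's description.

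Classical monocytes are made in the bone marrow, leave it through the chemokine receptor CCR2, and circulate with high Ly6C on their surface. In inflamed tissue and tumors they take up MHC class II and complement C1q expression, lose Ly6C, and can become macrophages or dendritic-like cells. In tumors they are known for carrying suppressive molecules such as arginase as well as interferon-induced and chemokine genes.

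The number of UMIs per monocyte differed between conditions with and without IACS-70654. The median monocyte held 3848 UMIs with vehicle, 4981 with IACS-70654, 3876 with anti–PD-1 and 5040 with the combination. Summed over monocytes, the libraries held 584366, 1102074, 607808 and 1241069 UMIs in that order. A gene with no UMI could therefore lie at up to 5.13, 2.72, 4.94 and 2.42 CPM in the 4 conditions, the level of 3 UMIs. CPM are UMIs scaled by the library's summed monocyte UMIs. No cell barcode was shared between the 4 libraries.

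Markers that the rule did not use set these cells apart from the 6798 tumor macrophages, defined as cells with at least 20 C1q UMIs. Plac8, an interferon-inducible gene high in monocytes, was at 2899, 1768, 4177 and 2226 CPM in monocytes with vehicle, IACS-70654, anti–PD-1 and combination, against 146 to 306 CPM in macrophages. S100a4, a calcium-binding protein of motile cells, was at 212 to 602 CPM in monocytes and 23.7 to 49.8 CPM in macrophages. Hp, haptoglobin of young myeloid cells, was at 124 to 446 CPM against 15.1 to 24.0 CPM. In the other direction, Apoe was at 9111 to 13392 CPM in monocytes and 36703 to 61479 CPM in macrophages, and Adgre1, which encodes F4/80, was at 34.5 to 61.6 against 161 to 297 CPM. These monocyte genes were thus high and these macrophage genes lower in each of the 4 libraries. Over the whole list of 15 classical monocyte genes the sums lay closer. They were 19135, 18545, 21308 and 16890 CPM in monocytes and 16228, 11176, 14694 and 10437 CPM in macrophages. Apoe was abundant in monocytes of all 4 libraries, and RNA free in solution was not removed.

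The upper limit on C1q passed through a continuum of cells. The 32 cells just inside it, with 15 to 19 C1q UMIs, had 832 CPM of Ccr2, 1254 of Plac8 and 14656 of Apoe. The 37 cells just outside it that met the other limits, with 20 to 24 C1q UMIs, had 963, 1485 and 14669 CPM. Those values lay close on either side of the limit. Ms4a7, a membrane protein of macrophages, was at 85.5 CPM inside and 220 CPM outside when the 4 libraries were pooled. By library it was at 328, 0, 466 and 0 CPM inside with vehicle, IACS-70654, anti–PD-1 and combination. Outside it was at 1013, 31.4, 126 and 136 CPM, so with anti–PD-1 it was lower outside. Each of these values by library rests on 2 to 15 cells. At the lower limit on Ccr2 and Ly6c2, Plac8 was at 1402, 1363, 1336 and 1399 CPM in cells with 2 UMIs in all and at 1710, 1498, 3345 and 2218 CPM in those with 3, in the order vehicle, IACS-70654, anti–PD-1 and combination. These values rest on 17 to 71 cells each.

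A few monocytes carried transcripts of other cell types. More than 1 UMI of Siglech, Ccr9 and Cox6a2, markers of plasmacytoid dendritic cells, was found in 7, 4, 7 and 8 monocytes with vehicle, IACS-70654, anti–PD-1 and combination. At least 20 UMIs of the neutrophil genes S100a8 and S100a9 were found in 2, 2, 4 and 3. A single vehicle cell held 328 of that library's 334 UMIs of Col1a1, Col1a2, Col3a1, Sparc and Dcn, genes of stroma, and a single anti–PD-1 cell held 132 of 134 UMIs of the NK cell genes Nkg7, Gzma, Ncr1 and Klrb1c. Over the longer marker lists, the 8 plasmacytoid markers summed to 489, 218, 563 and 322 CPM, and the 12 neutrophil markers to 638, 449, 1343 and 521 CPM. The 10 stromal markers summed to 614, 17.2, 57.6 and 19.3 CPM and the 10 T and NK markers to 20.5, 7.26, 244 and 19.3 CPM. The 7 B cell markers summed to 77.1 to 180 CPM, the 10 conventional dendritic cell markers to 179 to 292 CPM, and the 9 tumor cell markers to 50.8 to 95.8 CPM. Of the 8 basophil, eosinophil and mast cell markers, 7 had no UMI in any library, and the list summed to at most 3.29 CPM. The differences below were also computed without cells over the plasmacytoid or neutrophil limit above, or with more than 2 UMIs of the stromal or NK genes. Cells with more than 2 UMIs of the B cell genes Cd79a, Ms4a1 and Igkc were left out too. The named genes that this removal moved most are given with both values. No limit was set on conventional dendritic cell markers, and the part of such cells in the differences below was not tested.

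Monocytes were a smaller share of cells in both conditions with IACS-70654. They were 136 of 1974 cells with vehicle (6.89%, exact binomial interval 5.81 to 8.10) and 207 of 4739 with IACS-70654 (4.37%, 3.80 to 4.99). With anti–PD-1 they were 143 of 2053 cells (6.97%, 5.90 to 8.15), and with the combination 222 of 5064 (4.38%, 3.84 to 4.99). The 2 conditions with the drug lay below the 2 without it, with no overlap of their intervals. The share with IACS-70654 was 0.634 times that with vehicle (log2 ratio −0.66, interval −0.98 to −0.34), and that with the combination was 0.629 times that with anti–PD-1 (−0.67, −0.98 to −0.36). With anti–PD-1 alone the share was 1.01 times that with vehicle (0.02, −0.33 to 0.36).

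The size of this difference depended on how the cells were found. Ly6c2, a gene of the rule, was itself lower with the drug. When cells were thinned to 3000 UMIs the shares were 7.61%, 3.33%, 8.55% and 3.32%, ratios of 0.438 and 0.389. Cells with fewer UMIs were left out, so these shares are over 1288 of 1974, 4114 of 4739, 1275 of 2053 and 4365 of 5064 cells. A larger part of the cells was left out without the drug. Among monocytes and macrophages together, monocytes were 16.5% with vehicle, 6.70% with IACS-70654, 21.3% with anti–PD-1 and 7.60% with the combination. Over all kept cells, macrophages made up 34.8%, 60.9%, 25.7% and 53.3% of each library and neutrophils 9.73%, 2.11%, 13.2% and 1.92%, so a share of monocytes also moves with those of other cells. When cells were instead chosen on at least 5 UMIs of Plac8, without using Ccr2 or Ly6c2, they were 5.17%, 4.14%, 6.87% and 5.19% of cells. The log2 ratio was then −0.32 (−0.67 to 0.04) for IACS-70654 against vehicle and −0.40 (−0.70 to −0.10) for combination against anti–PD-1. The first of these intervals includes no difference. For anti–PD-1 against vehicle the log2 ratio was 0.41 (0.03 to 0.79) for Plac8-chosen cells and 0.37 (0.02 to 0.72) over monocytes and macrophages. For combination against IACS-70654 the values were 0.33 (0.06 to 0.60) and 0.18 (−0.10 to 0.46). By the other choices both intervals included no difference. Plac8 was itself lower with the drug, so this choice too rests on a gene that moved.

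**Figure D1:**
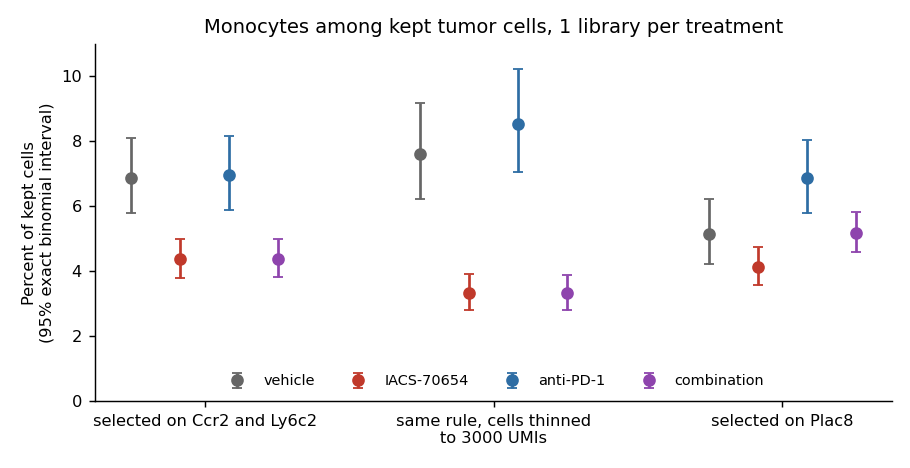
Monocyte share of kept cells in each of the 4 tumor libraries, in percent, by the Ccr2 and Ly6c2 rule, after thinning, and for cells chosen on Plac8. Thinning left out cells with fewer than 3000 UMIs. Bars on the points are 95% exact binomial intervals that cover counting error only. By the rule, the shares with IACS-70654 (4.37%) and combination (4.38%) lie below those with vehicle (6.89%) and anti–PD-1 (6.97%).

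Ly6c2, a gene of the rule, was at 662, 85.3, 847 and 230 CPM in monocytes with vehicle, IACS-70654, anti–PD-1 and combination. Ccr2, of which every member has at least 1 UMI, was at 1112, 1034, 1135 and 889 CPM. Both drug libraries were low in Ly6c2. Ccr2 levels lay close together, but the rule sets them in part, since a member without Ly6c2 needs at least 3 Ccr2 UMIs. Of the 708 members, 53, 158, 43 and 133 had no Ly6c2 UMI in the 4 libraries. The shares that held one were lower with the drug: 61.0% with vehicle, 23.7% with IACS-70654, 69.9% with anti–PD-1 and 40.1% with the combination. Thinned to 2000 UMIs a cell, the shares were 50.4%, 14.9%, 59.6% and 29.5%, against at most 0.455% of tumor cells, which do not make Ly6C. In cells chosen on Plac8, which neither gene chose, Ly6c2 was at 800, 90.4, 869 and 182 CPM and Ccr2 at 1087, 750, 948 and 658 CPM. Both genes were lower with the drug in these cells. Of the Plac8-chosen cells, 85.3%, 62.8%, 74.5% and 60.1% also met the monocyte rule.

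Differences across genes were read as log2 ratios of summed UMIs scaled by library total, over the 4507 genes at a mean of at least 30 CPM. The median gene differed by 0.02 with IACS-70654 against vehicle and by 0.05 with combination against anti–PD-1. At 2-fold, 65 genes (1.44%) were higher and 127 (2.82%) lower with IACS-70654 than with vehicle. With combination against anti–PD-1, 77 (1.71%) were higher and 94 (2.09%) lower. These comparisons share no library, and 11 genes (0.244%) were 2-fold higher and 56 (1.24%) 2-fold lower in both. Across the 4507 genes the log2 ratios of the 2 comparisons had a Pearson r of 0.47, a description over genes that are not independent replicates and that share each library's depth. At 1.5-fold with both counting intervals excluding no change, 76 genes (1.69%) were higher and 132 (2.93%) lower. Within that set, the 12 genes in each direction that lead when ranked by the smaller of their 2 ratios are described next.

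**Figure D2:**
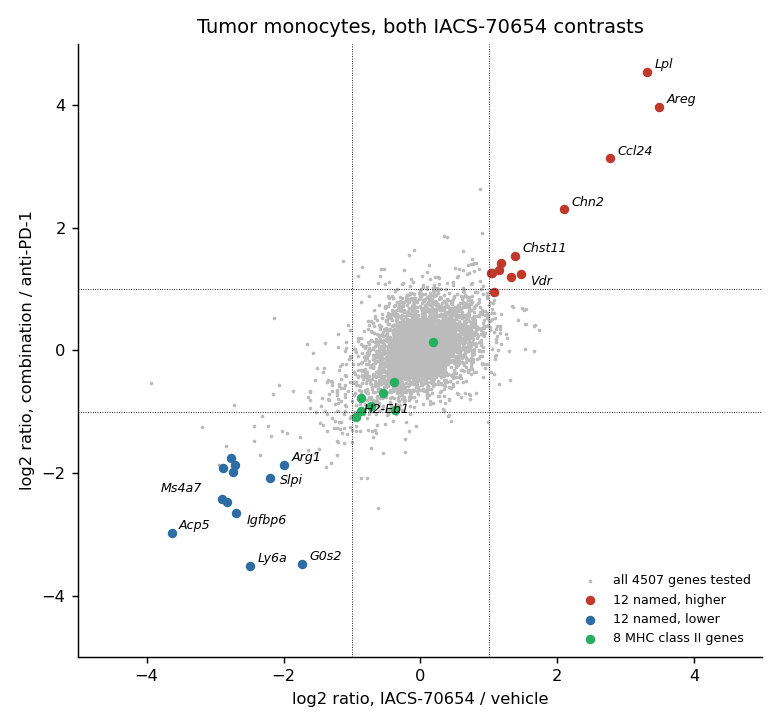
Log2 ratio of each of 4507 genes in tumor monocytes, IACS-70654 against vehicle (x axis) and combination against anti–PD-1 (y axis), with named genes marked; 5 genes lie outside the axes. More genes lie past 2-fold in the lower left (56) than in the upper right (11).

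Areg, Lpl and Ccl24 led the genes that were higher with the drug. Areg (ENSMUSG00000029378), which encodes the EGF receptor ligand amphiregulin, was at 18.8 CPM with vehicle, 221 with IACS-70654, 16.5 with anti–PD-1 and 272 with the combination. Lpl (ENSMUSG00000015568), lipoprotein lipase, was at 13.7, 144, 8.23 and 211 CPM. Ccl24 (ENSMUSG00000004814), the chemokine eotaxin-2, was at 82.1, 565, 93.8 and 831 CPM. In all 3 genes both drug libraries were high and both others low. The log2 ratios were 3.49 (2.69 to 4.57) and 3.98 (3.15 to 5.12) for Areg, 3.32 (2.38 to 4.63) and 4.55 (3.44 to 6.32) for Lpl, and 2.77 (2.36 to 3.24) and 3.14 (2.76 to 3.56) for Ccl24, IACS-70654 against vehicle first.

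The shares of cells with these transcripts differed too. With each cell thinned to 2000 UMIs, which kept 131, 201, 141 and 220 monocytes, Areg had a UMI in 0.763%, 14.9%, 2.13% and 13.6% of them. Lpl had one in 1.53%, 10.9%, 0.709% and 15.9%, and Ccl24 in 13.7%, 32.3%, 8.51% and 39.5%. In tumor cells treated the same way, which should lack both, Lpl had a UMI in at most 0.301% and Ccl24 in at most 0.151%, whereas Areg, an epithelial product too, had one in 2.36%, 6.78%, 2.05% and 8.20%. Tumor cell Areg thus moved with the condition as well, and the part of its free RNA in the monocyte counts was not tested.

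The other 9 genes that were higher with the drug differed less. Chn2, a Rac GTPase-activating protein, was at 12, 54.4, 9.87 and 52.4 CPM. Vdr, the vitamin D receptor, was at 22.3, 63.5, 18.1 and 44.3 CPM, and Nr4a2, a nuclear receptor, at 176, 363, 201 and 485 CPM. Ccnd2, a D-type cyclin, was at 56.5, 129, 46.1 and 125 CPM, and Smarca2, a chromatin-remodelling ATPase with its own bromodomain, at 24.0, 50.8, 28.0 and 68.5 CPM. Atp1b3, a sodium pump subunit, was at 154, 389, 188 and 434 CPM. Chst11, Gabarapl1 and Gab2 were also higher, with log2 ratios of 0.95 to 1.54 over both comparisons.

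The genes that were lower included surface proteins of monocytes and macrophages. Ly6c1 (ENSMUSG00000079018) was at 311, 46.3, 391.6 and 99.1 CPM, log2 ratios of −2.74 (−3.23 to −2.30) and −1.98 (−2.31 to −1.66). Ly6c1 and Ly6c2 are near-identical copies, so reads can be split between them. Ly6a (ENSMUSG00000075602), an interferon-induced surface protein also called Sca-1, was at 190, 33.6, 179 and 15.3 CPM. Ms4a7 (ENSMUSG00000024672) was at 192, 25.4, 201 and 37.1 CPM, with log2 ratios of −2.90 (−3.57 to −2.31) and −2.43 (−2.96 to −1.94). Fewer thinned monocytes held these transcripts with the drug, Ly6c1 being found in 37.4%, 6.47%, 42.6% and 14.1% of them and Ms4a7 in 19.8%, 6.47%, 18.4% and 6.82%. Tumor cells thinned alike held Ly6c1 in at most 0.684% and Ms4a7 in at most 0.909%.

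Enzymes and secreted proteins were among the others. Acp5, tartrate-resistant acid phosphatase and the first of the 12 in rank, was at 83.9, 6.35, 110 and 13.7 CPM, and Apoc2, the cofactor of lipoprotein lipase, at 325, 47.2, 415 and 123 CPM. Tnfsf13, the B cell factor APRIL, was at 99.3, 13.6, 90.5 and 16.1 CPM. Slpi, an inhibitor of neutrophil elastase, was at 200 CPM with vehicle, 43.6 with IACS-70654, 408 with anti–PD-1 and 95.9 with the combination. Thinned to 2000 UMIs, 60.4% to 78.8% of tumor cells held Slpi against 4.98% to 22.7% of monocytes, and the part of free tumor RNA in its monocyte counts was not tested. Without cells that held markers of other types its log2 ratio for combination against anti–PD-1 was −2.86 rather than −2.09, and thinned to 3000 UMIs it was −1.30. Arg1 (ENSMUSG00000019987), the arginine-degrading enzyme of suppressive myeloid cells, was at 80.4, 20.0, 197 and 54.0 CPM, but these UMIs came from 13, 9, 13 and 19 cells. Its log2 ratios were −1.99 (−2.81 to −1.25) and −1.87 (−2.32 to −1.43), and the second was −0.67 when cells were thinned to 3000 UMIs. Thinned to 2000 UMIs, 6.87%, 1.99%, 7.09% and 5.91% of monocytes held Arg1, against 6.20% to 7.52% of tumor cells, and these shares are not read as a difference. Igfbp6 and Timp2 were lower as well, with log2 ratios of −1.87 to −2.72. G0s2, a lipolysis inhibitor, had log2 ratios of −1.73 and −3.49. The first was −0.41 without cells that held markers of other types, and the second was −0.78 with at least 6 UMIs of Ccr2 and Ly6c2.

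Ccr9, a chemokine receptor of plasmacytoid dendritic cells, was the remaining gene of the 12, at 35.9, 4.54, 70.8 and 18.5 CPM from 6, 4, 8 and 6 cells. Without the cells that held plasmacytoid markers its log2 ratio for IACS-70654 against vehicle was 0.58 rather than −2.88, and that for combination against anti–PD-1 was −3.35 rather than −1.92.

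The size of several of these differences changed with thinning. With cells thinned to 3000 UMIs the log2 ratios were 2.74 and 3.15 for Areg, 2.37 and 3.21 for Lpl and 0.95 and 1.68 for Chn2, IACS-70654 against vehicle first. For combination against anti–PD-1 they were −1.23 for Ly6c1, −1.56 for Tnfsf13, −2.66 for Ly6a and −3.16 for Ms4a7. Ccr9 changed sign under several alternatives. When members with and without a Ly6c2 UMI were summed apart, G0s2 was at −4.56 and −2.83 in those with one and at 1.55 and −2.44 in those without.

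**Figure D3:**
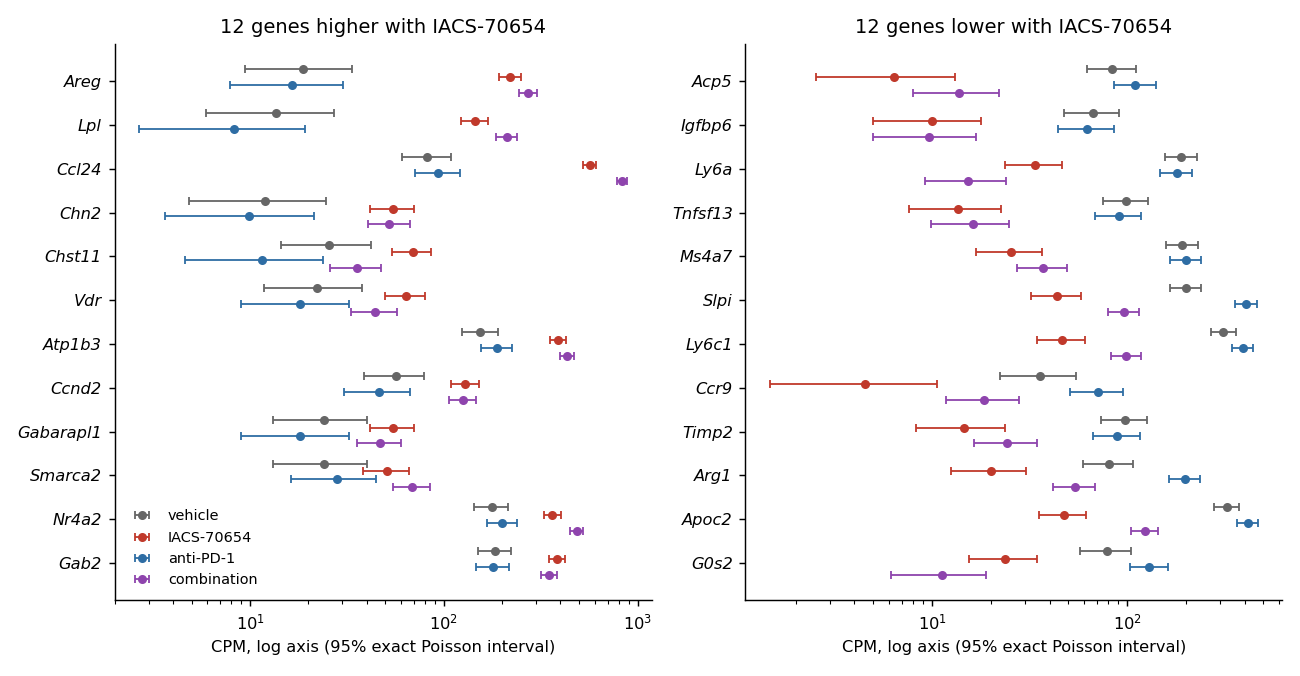
Level of the named genes in tumor monocytes of each of the 4 libraries, in CPM on a log axis, with genes higher with IACS-70654 in the left panel and genes lower in the right; each point is 1 library and each bar a 95% exact Poisson interval for counting error. The points with IACS-70654 and combination lie on one side of those with vehicle and anti–PD-1 for the plotted genes.

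The same genes differed in the same direction in macrophages. All 12 higher genes had ratios above 0 and all 12 lower genes below 0 in both macrophage comparisons, where 38.2% of the 4507 genes were above 0 in both and 37.2% below. In monocytes 35.2% and 27.1% of all genes did so. The medians of the 12 higher genes were 1.36 and 1.37 in monocytes and 0.78 and 0.87 in macrophages. Those of the lower genes were −2.73 and −2.26 against −1.16 and −1.08. Since these genes were chosen on monocytes, the choice itself favours larger ratios there. Ms4a7 was at −1.03 and −0.86 in macrophages, Ccl24 at 2.66 and 2.91, and Arg1 at −0.12 and −0.46.

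Genes of classical monocytes were lower together. Of 15 listed genes, 12 were lower and 2 higher in both comparisons, with medians of −0.45 and −0.68, and for 9 both intervals lay below 0, against 5.28% of all genes with both intervals below 0 and 4.64% with both above. Ly6c1 is 1 of these 9. In members with a Ly6c2 UMI 9 of the 15 were lower in both comparisons, with medians of −0.28 and −0.66, and in members without one 9 were, with medians of −0.22 and −0.44. Of all genes 25.8% were lower in both in the former and 28.4% in the latter. The share of members with a Ly6c2 UMI moved with the drug as given above, so each side of this split compares differently selected cells. The split is a description only, and the part of that share in the list's difference over all monocytes was not tested. S100a4 was at 513, 237, 602 and 212 CPM, log2 ratios of −1.12 (−1.36 to −0.87) and −1.51 (−1.74 to −1.27). It had a UMI in 48.9%, 27.9%, 50.4% and 21.8% of thinned monocytes, against at most 1.59% of tumor cells. Hp was at 347, 140, 446 and 124 CPM, and F13a1, coagulation factor XIII, at 211, 88.0, 214 and 88.6 CPM. Plac8 had log2 ratios of −0.71 and −0.91, and Ms4a4c of −0.35 and −0.10. Of the 4 genes of nonclassical monocytes that passed the minimum, Cx3cr1, the fractalkine receptor, was at 212, 90.7, 156 and 98.3 CPM, and Itgal and Pou2f2 had both intervals below 0 too.

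MHC class II genes, whose products present peptides to CD4 T cells, were also lower. Their promoters from 4 genes are shown because 6 of 8 class II genes had both intervals below 0, as 5.28% of all genes did, and their transcription depends on a shared set of upstream boxes. Each line runs 5′ to 3′ on the gene's strand from RefSeq on GRCm38.p6, and capitals mark the Y box TGATTGG.
H2-Aa, chr17:34287837-34287933, minus strand: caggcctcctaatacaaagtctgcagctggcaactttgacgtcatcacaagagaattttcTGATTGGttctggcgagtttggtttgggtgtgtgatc
H2-Eb1, chr17:34305746-34305842, plus strand: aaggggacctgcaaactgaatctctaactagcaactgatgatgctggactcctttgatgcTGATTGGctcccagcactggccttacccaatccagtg
H2-DMb1, chr17:34153068-34153164, plus strand: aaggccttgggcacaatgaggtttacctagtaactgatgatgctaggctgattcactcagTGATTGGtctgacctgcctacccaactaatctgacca
H2-DMb2, chr17:34145097-34145193, plus strand: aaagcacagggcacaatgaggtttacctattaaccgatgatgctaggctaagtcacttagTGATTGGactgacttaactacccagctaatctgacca

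Of 10 class II genes, 7 had a promoter entry on chromosome 17. Of these, 6 held TGATTGG on either strand in the 250 bases before the start, against 7.23% of 32851 promoters. Entries on another chromosome were left out of the class II count but kept in the 32851, so more of the 10 genes may have one. Of the genes with both intervals below 0, Cd74 and H2-Ab1 were not among the 7. The gene of the 7 without TGATTGG was H2-DMa, which was not lower. In the 4 shown TGATTGG began 50, 61, 63 and 92 bases before the start. A match is a description of the letters and not a measured site. H2-Aa (ENSMUSG00000036594) was at 5189, 3158, 4194 and 2245 CPM, H2-Ab1 at 3903, 2139, 3276 and 1645, and H2-Eb1 at 3441, 1800, 2456 and 1155. Their log2 ratios were −0.72 to −0.94 with IACS-70654 against vehicle and −0.90 to −1.09 with combination against anti–PD-1. Cd74, the invariant chain, was at 13408, 10240, 11152 and 7812 CPM, and H2-DMb1 and H2-DMb2, peptide loading subunits, had log2 ratios of −0.55 to −0.87. H2-DMa, the partner subunit, was at 732, 833, 742 and 820 CPM and was slightly higher. Ciita, the coactivator of these genes, was at 54.8, 42.7, 80.6 and 41.1 CPM, with log2 ratios of −0.37 (−1.04 to 0.34) and −0.97 (−1.57 to −0.38). Over the 8 genes the medians were −0.63 and −0.84 in monocytes and −1.31 and −0.95 in macrophages.

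MHC class I genes did not follow. Of 17, both intervals lay above 0 for H2-K1, H2-D1 and B2m (4.64% of all genes) and below 0 for none (5.28%), with medians of 0.14 and 0.27. H2-K1 was at 1206, 1830, 1268 and 1840 CPM and H2-D1 at 3197, 4904, 3526 and 4736 CPM.

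Chemokines differed by gene. Of 16, 7 had both intervals above 0 (4.64% of all genes did), namely Ccl2, Ccl3, Ccl4, Ccl6, Ccl9, Ccl24 and Cxcl2, and 2 had both below (5.28% of all genes), Ccl5 and Cxcl16. The list's medians were −0.01 and 0.66. Ccl4, an inflammatory chemokine of myeloid cells, was at 507, 1151, 780 and 1176 CPM and Ccl3, another inflammatory chemokine, at 127, 322, 181 and 300 CPM. Ccl6 was at 520, 1020, 550 and 1021 CPM, and Ccl2, the ligand of CCR2, at 400, 575, 546 and 789 CPM. Cxcl9, an interferon-γ-induced chemokine, was at 310 CPM with vehicle and 91.1 to 104 CPM in the other 3 libraries. Of 15 trafficking receptors and integrins, 14 were lower in both comparisons (27.1% of all genes were), with medians of −0.42 and −0.42, and 6 had both intervals below 0: Ccr1, Cx3cr1, C3ar1, Itgal, Itgb2 and Cd44.

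Suppressive effectors were mixed. Over all genes, 5.28% had both intervals below 0 and 4.64% had both above. Of 19 genes, Arg1, S100a9, Clec4e, Clec4d, Wfdc17, Lgals3 and Il1rn had both intervals below 0, and Trem1, an amplifying receptor of myeloid cells, and Spp1, osteopontin, had both above. The medians were −0.30 and −0.23. Among 13 inflammatory cytokine genes Il1a, Il1rn and Nfkbia had both intervals below 0 and none had both above (medians −0.47 and −0.35). Il1b was at 2615, 2646, 3360 and 2866 CPM, log2 ratios of 0.02 and −0.23.

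Regulators of monocyte fate showed smaller differences. Irf8, a factor of monocyte and dendritic cell lineages, was at 325, 186, 316 and 243 CPM, and Spi1, which encodes PU.1, at 483, 414, 498 and 415 CPM. Klf4, needed for Ly6C-high monocytes, was at 464, 633, 452 and 690 CPM, and Runx1 at 320, 606, 365 and 499 CPM. Of 20 such genes, Klf4 and Runx1 had both intervals above 0 and Spi1, Irf8, Maf, Tcf4 and Hif1a below, against 4.64% and 5.28% of all genes. Tcf4 is also among the 8 plasmacytoid markers, which summed to 489, 218, 563 and 322 CPM. The part of plasmacytoid cells in its difference was not tested. Crebbp and Ep300, which encode the drug's targets, had log2 ratios of 0.38 and 0.13, and 0.34 and 0.25. All 6 genes in the list of CBP, P300 and BET genes were higher in both comparisons, as 35.2% of all genes were, with medians of 0.33 and 0.22. None of the 6 had both intervals on one side of 0. Among 14 lipid and lysosome genes, Lpl and Abca1, a cholesterol exporter, had both intervals above 0 and 7, including Fabp5, Lgmn and Npc2, had both below, beside the same shares of all genes.

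The interferon-response genes were divided in direction with the drug over all monocytes. Of 52 that passed the minimum, 14 were higher and 16 lower in both comparisons, with medians of 0.00 and −0.03, where 35.2% and 27.1% of all genes were. The second median was 0.21 with cells thinned to 3000 UMIs. Members were also separated by Ly6c2, a gene of the rule that was itself lower with the drug. The shares holding a UMI of it were 61.0% and 69.9% without the drug and 23.7% and 40.1% with it. A member without one needed at least 3 Ccr2 UMIs, and depth also differed with the drug. Each side of the split thus compares differently selected cells, and it cannot qualify the result over all monocytes. The split is given as a description of the 52 genes only. In members with a Ly6c2 UMI 20 were higher and 6 lower in both comparisons, with medians of 0.40 and −0.06, where 33.7% of all genes were higher and 25.8% lower. In members without one 27 were higher and 4 lower, with medians of 0.07 and 0.66, where 29.2% were higher and 28.4% lower. Both intervals lay below 0 for Isg15, Rsad2, Ifi47, Gbp3, Bst2 and Ly6a and above 0 for none, against 5.28% and 4.64% of all genes. Rsad2, the antiviral enzyme viperin, was at 260, 99.8, 415 and 110 CPM, log2 ratios of −1.38 (−1.75 to −1.02) and −1.91 (−2.22 to −1.60). Isg15, a ubiquitin-like protein, was at 500, 370, 954 and 514 CPM. In macrophages 44 of the 52 were higher in both comparisons and 3 lower, where 38.2% and 37.2% of all genes were, with medians of 0.52 and 0.55. Rsad2 there was at 1.22 and −0.30.

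**Figure D4:**
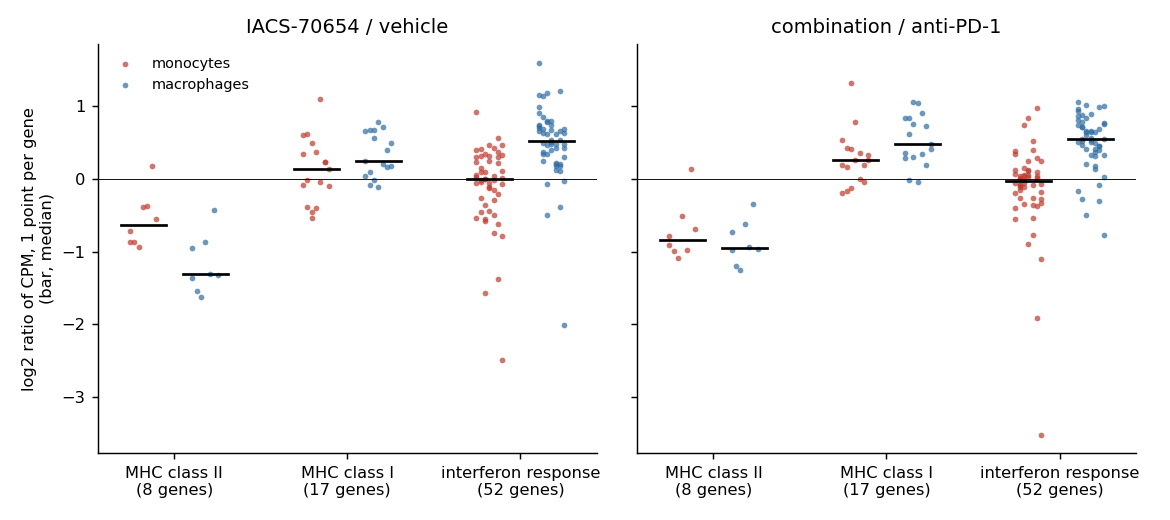
Log2 ratio of CPM for single genes (points) of 3 lists and their medians (bars), in tumor monocytes and macrophages, for IACS-70654 against vehicle in the left panel and combination against anti–PD-1 in the right. MHC class II genes lie mostly below 0 in both cell types, and interferon-response genes lie around 0 over all monocytes (medians 0.00 and −0.03) and mostly above it in macrophages (0.52 and 0.55). Separated by Ly6c2, which is not drawn, the medians were 0.40 and −0.06 in monocytes with a UMI of it and 0.07 and 0.66 in those without. Ly6c2 is a gene of the rule and was lower with the drug, so each side of the split compares differently selected cells. These medians are a description only.

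Monocytes with a strong interferon response were counted as cells with at least 3 of Ifit2, Ifit3, Isg15 and Rsad2 after thinning to 2000 UMIs. They were 10 of 131 with vehicle (7.63%, 3.72 to 13.6), 12 of 201 with IACS-70654 (5.97%, 3.12 to 10.2), 15 of 141 with anti–PD-1 (10.6%, 6.08 to 16.9) and 18 of 220 with the combination (8.18%, 4.92 to 12.6). All 4 intervals overlapped. Without thinning the shares were 8.09%, 10.6%, 13.3% and 14.9%. The same count gave 2.94%, 6.70%, 5.22% and 6.35% of macrophages.

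Anti–PD-1 was accompanied by fewer differences. Against vehicle, 38 genes (0.843%) were 2-fold higher and 64 (1.42%) lower, and with combination against IACS-70654, 26 (0.577%) were higher and 7 (0.155%) lower. In both, 4 (0.0888%) were higher and 3 (0.0666%) lower, and at 1.5-fold with both intervals excluding no change 14 (0.311%) and 5 (0.111%). These comparisons share no library, and their log2 ratios had a Pearson r of 0.043 across the 4507 genes.

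Ccl5, a chemokine for T cells, was at 151, 95.3, 377 and 235 CPM, log2 ratios of 1.32 and 1.30 with anti–PD-1, the first being 0.45 with cells thinned to 3000 UMIs. Arg1 had log2 ratios of 1.29 and 1.41, from 9 to 19 cells a library. Thinned monocytes held it in like shares with vehicle and anti–PD-1, and in 1.99% with IACS-70654 and 5.91% with the combination. As given above, these shares are not read as a difference. Slpi had log2 ratios of 1.02 and 1.13. S100a8, a neutrophil gene, was at 59.9, 51.7, 391.6 and 123 CPM, and 1 cell held 34.3%, 31.6%, 40.3% and 28.8% of its UMIs in the 4 libraries. Its log2 ratios with anti–PD-1 were 2.69 and 1.25, and 0.47 and 0.42 without the cells rich in S100a8 and S100a9. Ccr9 and Ppfia4 were the other higher genes by the same rule, at 70.8 and 105 CPM with anti–PD-1 alone. Immp2l, Tspan3 and Aig1 were lower with log2 ratios of −0.66 to −1.68. Tpm1 and Timp1, genes of fibroblasts, were lower as well, and 88.6% of the vehicle library's Timp1 UMIs came from 1 cell. Without cells that held markers of other types, their log2 ratios for anti–PD-1 against vehicle were 0.04 and 1.29 rather than −1.31 and −1.68. Of the interferon-response genes, 35 of 52 were higher in both anti–PD-1 comparisons and 4 lower, with medians of 0.28 and 0.24, where 26.1% of all genes were higher in both and 25.1% lower. Both intervals lay above 0 for 5 of the 52 and below for none, against 1.26% and 0.621% of all genes.

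Bone marrow monocytes carried part of the same pattern, in a comparison with replicates. They were chosen by the same limits with at most 1 UMI of plasmacytoid markers, and numbered 353 and 385 in the vehicle libraries and 561 and 690 with IACS-70654, within 2845 over 6 libraries of CD45+ marrow. The ctrl libraries of mice without tumors entered the fit for its estimate of spread. The labels do not say whether the 2 replicates came from separate pools of mice, so the p-values may measure technical spread only. By edgeR's quasi-likelihood test, at a Benjamini-Hochberg adjusted p of 0.01 and a log2 change of 0.5, 268 of 11599 genes rose (2.31%) and 537 fell (4.63%) with IACS-70654. Without vehicle replicate 2, 174 rose and 376 fell.

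Of the 11 genes 2-fold higher in both tumor comparisons, 10 were tested in marrow, 4 rose and none fell, with a median log2 change of 0.34. Of the 56 lower genes, 47 were tested, 26 fell and 1 rose, with a median of −0.68. Of all genes tested in marrow, 2.31% rose and 4.63% fell. The 56 include Ly6c2, on which marrow cells were chosen too. The groups were drawn from tumor cells, so the marrow values are a separate measurement of the same drug. Lpl was at 2.98 and 3.25 CPM with vehicle and 32.1 and 32.3 with IACS-70654, and rose by 3.33 ± 0.195 (SE; adjusted p = 2.28e-12, edgeR's quasi-likelihood test). Chn2 rose from 24.8 and 27.8 to 125 and 133 CPM (2.26 ± 0.0909; edgeR adjusted p = 2.84e-15). Ccl24 rose by 1.47 ± 0.164 (edgeR adjusted p = 2.29e-07), from a level of 12.2 and 15.4 CPM. In all 3 the replicates of each group were close and the groups did not overlap.

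Ly6c1 fell from 781 and 774 CPM to 426 and 403 (−0.94 ± 0.0386; edgeR adjusted p = 4.05e-15), with 723 and 742 in ctrl marrow. S100a4 fell from 1024 and 1003 to 507 and 522 CPM (−1.01 ± 0.0359; edgeR adjusted p = 2.43e-16). Apoc2 fell by 2.33 on the log2 scale and Slpi by 1.20. H2-Aa was at 169 and 98.7 CPM with vehicle and 35.6 and 36.0 with IACS-70654 (−1.93 ± 0.149; edgeR adjusted p = 3.91e-10). In marrow the vehicle levels of H2-Aa were far below the 5189 CPM of tumor monocytes.

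Other tumor differences were not called in marrow. Ms4a7 changed by 0.05 there (edgeR adjusted p = 0.937) and Arg1 by −1.07 (edgeR adjusted p = 0.122). Acp5, Igfbp6, Vdr, Nr4a2, Atp1b3, Ccnd2, Chst11 and Smarca2 did not pass either, and Areg was below the count filter. Rsad2 went the other way, rising by 1.32 ± 0.264 (edgeR adjusted p = 0.000606) from 2.98 and 3.25 to 7.93 and 8.03 CPM. Over all genes tested in marrow, 2.31% rose and 4.63% fell. By list, 8 of 15 classical monocyte genes fell and 0 rose, and 6 of 9 class II genes fell and 1 rose. Of the 12 neutrophil markers 9 fell and 0 rose, with a median log2 change of −0.86, against −0.59 for the classical monocyte list. No limit on neutrophil markers was set for marrow cells, and the part of neutrophil RNA in these differences was not tested. Of 55 interferon-response genes 11 rose and 4 fell, and of 18 trafficking genes 6 fell and 0 rose.

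**Figure D5:**
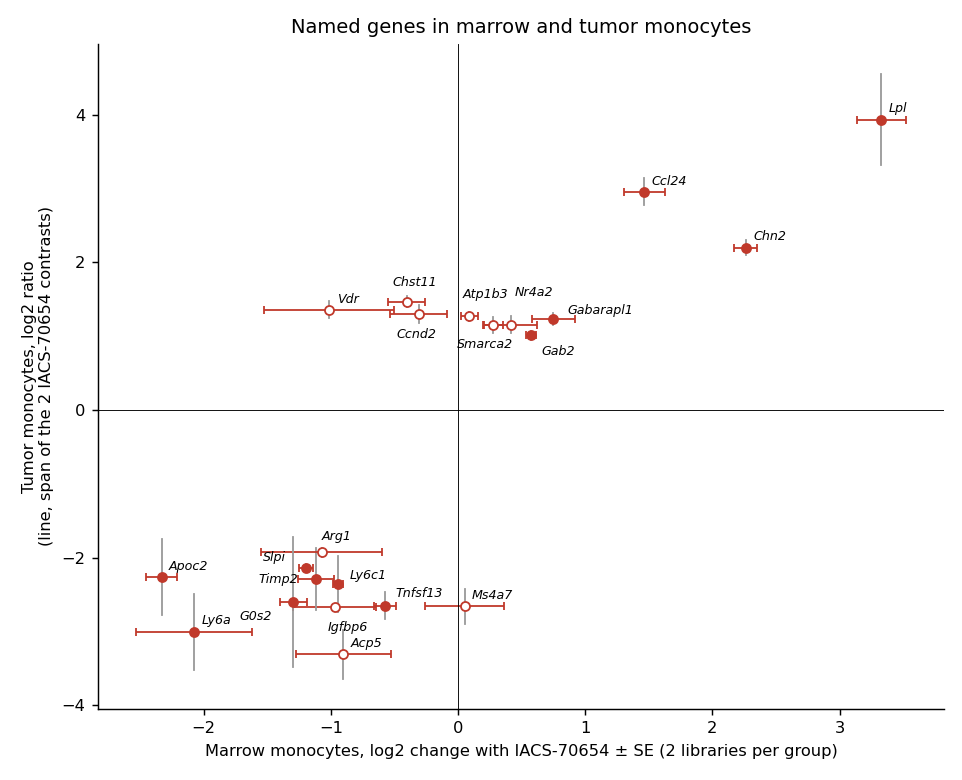
Named genes by their log2 change with IACS-70654 in marrow monocytes (x axis, ± SE, 2 libraries per group) and their log2 ratio in tumor monocytes (y axis, the line spanning the 2 comparisons and the point at its middle). Filled points passed the marrow thresholds, as for Lpl (3.33) and Ly6c1 (−0.94), and Ms4a7 lies near 0 on the marrow axis only.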

How the data were processed

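For the tumor and marrow cells the authors deposited raw UMI counts per gene and cell, made with CellRanger (7.1.0 for tumor and 7.2.0 for marrow in the file headers) on mm10 and demultiplexed by sample tag; the labels also name Seurat. Counts covered 32286 features. For tumors the paper adjusted the confidence of tag assignment so that more cells entered. The share of cells assigned to a wrong condition was not tested. Cells were filtered and chosen by the limits given in the report, with no doublet caller, and cells of other types were counted in its place. Monocyte UMIs were summed per library and scaled to CPM. Log2 ratios used 0.5 added UMIs, with 95% exact intervals. Genes needed a mean of 30 CPM over the 4 libraries. Named genes were, in each direction, the 12 (for anti–PD-1, 6) with the largest smaller ratio among those past 1.5-fold in both comparisons with both intervals excluding no change, leaving out rule genes, mitochondrial and ribosomal genes and unnamed models. Marrow sums were tested with edgeR 4.0.16 in R 4.3.3. In data simulated for marrow, 97.5% of 200 genes changed 2-fold were recovered with 1 false call among 11406 genes. The changed genes were drawn from those with higher counts, and all genes shared 1 estimate of spread. The recovery therefore does not cover genes with low counts. Members and lists were chosen with earlier results of these data known. Summed marrow UMIs were 4358549 to 9343984 per library. Alternatives included thinning, TMM and DESeq2 1.42.0. Thinning left out cells with fewer UMIs than the number thinned to.

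The lists not described in the report gave the following medians for IACS-70654 against vehicle and combination against anti–PD-1 in tumor monocytes. Macrophage genes (12 passing) were at −0.53 and −0.12 (the latter 0.21 with cells thinned to 3000 UMIs), growth factor receptors (18) at −0.10 and −0.08, immediate early genes (17) at 0.10 and 0.01, glycolysis and hypoxia genes (14) at −0.03 and −0.03, NADPH oxidase subunits (6) at −0.01 and −0.15, cell cycle genes (4) at 0.14 and 0.20, and Fc and pattern receptors (16) at −0.04 and −0.14.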

Additional observations from a re-analysis of the deposited data

Results flagged for a closer look

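In 3 genes the comparisons of one treatment, made with and without the other, went past 1.5-fold in opposite directions with each interval excluding no change. The difference between the comparisons was not tested, since each condition had 1 library. G0s2, a lipolysis inhibitor also high in neutrophils, had log2 ratios of 0.72 with anti–PD-1 against vehicle and −1.04 with combination against IACS-70654. Cxcl1, a neutrophil chemokine, had −0.92 and 0.87 in the same comparisons. Pf4, platelet factor 4, had −1.12 with IACS-70654 against vehicle and 1.45 with combination against anti–PD-1, and −1.85 and 0.73 for the anti–PD-1 comparisons. Pf4 rested on 29, 25, 8 and 47 UMIs with vehicle, IACS-70654, anti–PD-1 and combination, and 1 cell held 62.1% of those with vehicle.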

How the results depend on the processing

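The monocyte share was lower with the drug in both comparisons under the 5 alternatives given here, though the Plac8 interval for IACS-70654 against vehicle included 0. For IACS-70654 against vehicle the log2 ratio of −0.66 became −1.19 after thinning, −0.99 with at least 6 UMIs of Ccr2 and Ly6c2, −0.96 with fewer than 5 C1q UMIs, −1.30 over monocytes and macrophages and −0.32 for Plac8-chosen cells. For combination against anti–PD-1, −0.67 became −1.36, −1.02, −0.82, −1.49 and −0.40. Thinning also left out cells with fewer than 3000 UMIs, a larger part of them without the drug, so its ratios are over other cells. The Plac8 choice, the removal of cells over any limit for other types and the split by Ly6c2 were added after seeing the data. The 11 genes 2-fold higher in both drug comparisons became 23 with at least 6 UMIs of Ccr2 and Ly6c2, 22 after thinning, 45 at 10 CPM, 4 at 100 CPM and 105 at 1.5-fold. The 56 lower genes became 57 with at least 6 UMIs of Ccr2 and Ly6c2, 45 after thinning, 133 at 10 CPM, 15 at 100 CPM and 164 at 1.5-fold. TMM and DESeq2 size factors gave 11 and 11 higher, and 57 and 61 lower.

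A few genes turned direction. Ccr9 with IACS-70654 against vehicle was at 0.58 without plasmacytoid-marker cells, 0.56 without cells over any limit for other types and 0.27 in Plac8-chosen cells. For combination against anti–PD-1 it was at 0.27 with at least 6 UMIs. Tpm1 with anti–PD-1 against vehicle was at 0.67, 0.06 and 0.035 after thinning and after those removals. Timp1 was at 0.33, 1.24 and 1.29 there and 0.16 in Plac8-chosen cells. Ccr2 with IACS-70654 against vehicle was at 0.10 after thinning. For combination against anti–PD-1, the medians of macrophage and interferon-response genes went from −0.12 to 0.21 and from −0.03 to 0.21 after thinning. That of the regulators of monocyte fate went from −0.145 to 0.054. The causes were not tested.

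In marrow, DESeq2 called 120 genes higher and 296 lower against 268 and 537. Leaving out 1 library at a time gave 174 to 292 higher and 371 to 557 lower, the lowest counts of higher genes without vehicle replicate 2. Ccnd2 and Ms4a7, not called, ranged from −0.69 to 0.25 and from −0.21 to 0.35. A fit with a replicate block gave 286 and 557. Correlations between same-numbered replicates were −0.0162, −0.0062 and −0.0589, so the numbers were not taken to pair libraries. Gene levels rest on 584366 to 1241069 UMIs per tumor library, which limits genes near 30 CPM.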
